A study of Mus musculus with 8 samples.

Results

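Hdac3 is a histone deacetylase, an enzyme that takes acetyl groups off histones, and it works in the NCoR and SMRT corepressor complexes. These complexes are brought to DNA by nuclear receptors such as Rev-erb alpha, and in liver Hdac3 is known for daily control of lipid metabolism genes. Foxa2, of the forkhead family, is a so-called pioneer factor: it reaches DNA in closed chromatin and occupies many liver enhancers. Both proteins were located on DNA by chromatin immunoprecipitation with sequencing (ChIP-seq). The livers came from wild-type mice of the inbred strain C57BL/6 at 3 months (young) and 21 months (old), with a Foxa2 rabbit antiserum or an Hdac3 rabbit antibody.

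The sites described here are places where the Hdac3 list of young liver has a site and no Foxa2 site is near. They are the young Hdac3 sites that lie more than 10 kb, edge to edge, from every Foxa2 site of both ages and that overlap no old Hdac3 site. They are called far sites below. Of the 5828 young Hdac3 sites, 4382 met the rule, 75.2% (exact 95% interval 74.1 to 76.3), out of 28196 sites in the 4 deposited lists. Each protein and age had 2 libraries, 8 samples grouped by title, and the libraries of a group are represented by 1 list, so no value has a replicate error, no test was made, and intervals cover counting error only. Read depth was unknown, whole liver tissue holds several cell types whose shares in the signal cannot be told apart, and whether the libraries of a group came from separate animals was not stated. Sites are named by their mm9 position as listed, since neither sequence nor gene annotation of mm9 was used here.

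Over the whole young Hdac3 list the median distance to the nearest Foxa2 site was 50.6 kb (quartiles 10.2 and 162 kb). The rule sets a least distance of 10 kb for the far sites, so their distances are in part fixed by it. The far sites lay at a median of 88.7 kb from the nearest Foxa2 site (quartiles 36.4 and 230 kb), and the farthest lay 2074 kb away. In the first 10 kb beyond the limit lay 500 of them, 11.4%, while 1217, 27.8%, lay above 200 kb and 385 above 500 kb. The nearest Foxa2 site belonged to the old list for 2947 far sites (67.3%) and to the young list for 1430 (32.6%). The old Foxa2 list holds 12834 sites and the young one 6604, so the lists differ in how much of the genome they leave far. The median distance was 205 kb to a young and 129 kb to an old Foxa2 site. Of the other young Hdac3 sites, 1442 lay within 10 kb of Foxa2, among them 643 near an old Foxa2 site without a young one, 197 near a young one without an old one and 602 near both.

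**Figure D1:**
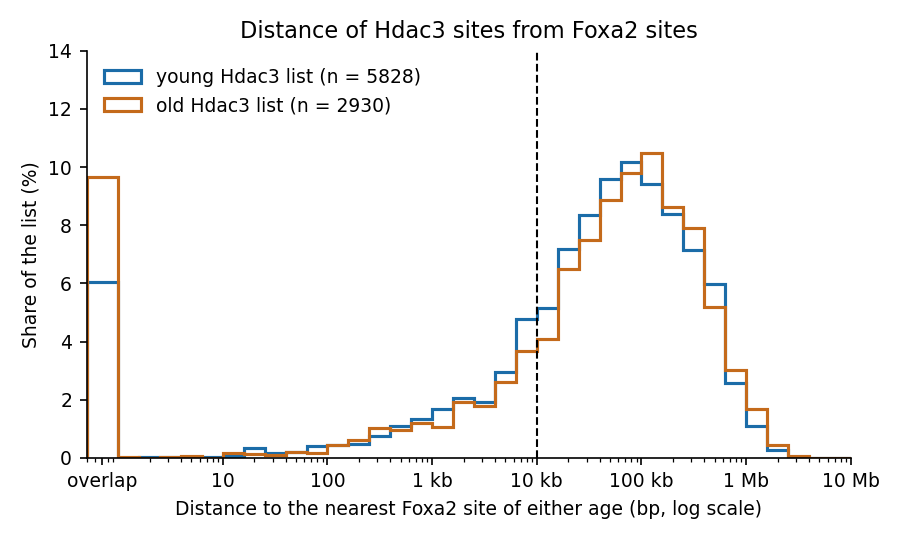
Share of each Hdac3 list (%) by distance to the nearest Foxa2 site of either age (bp, log scale), with overlapping sites in the first bin and a dashed line at 10 kb. Both lists have a bin of overlapping sites at the left, 6.04% of the young and 9.66% of the old list, and a broad peak near 100 kb with no break at the 10 kb line.

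The limit of 10 kb fell in the middle of a continuous run of distances. Just outside it, the far sites nearest to Foxa2 lay on chromosome 5 from 125633924 to 125633938 (10035 bp from a Foxa2 site, 15 bp wide), and on chromosome 4, from 42954600 to 42954604 (10048 bp, 5 bp wide) and from 89926516 to 89926560 (10052 bp, 45 bp wide). Just inside it, sites that did not count as far lay at 42974674 to 42974677 of chromosome 4 (9986 bp, 4 bp wide), 119328864 to 119328898 of chromosome 6 (9956 bp, 35 bp wide) and 38304978 to 38304990 of chromosome 16 (9945 bp, 13 bp wide). The listed q-values were 0.198, 0.194 and 0.107 outside and 0.194, 0.188 and 0.16 inside. Widths and q on either side of the limit overlapped.

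Far sites were narrow. Their median width was 24 bp (quartiles 11 and 44), 58.3% (56.8 to 59.7) were under 30 bp, and 110 of them were a single base. Together they covered 129 kb. The libraries held inserts of about 100 bp, per the labels, and 4364 far sites (99.6%) were narrower than that. The widest far sites lay on chromosome 6 from 47750065 to 47750378 (314 bp, enrichment 13.1), chromosome 11 from 85261148 to 85261387 (240 bp, enrichment 13.2), chromosome 5 from 130647511 to 130647724 (214 bp, enrichment 12.5), chromosome 2 from 155568058 to 155568270 (213 bp, enrichment 7.80) and chromosome 17 from 23650661 to 23650853 (193 bp, enrichment 2.02). These enrichments are the authors' ratio per site, and the baseline of that ratio was not stated.

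Young Hdac3 sites near Foxa2 but not on it had much the same width and q as the far sites. The 310 sites that lay 1 to 1000 bp from Foxa2 had a median width of 26 bp, and the 780 sites beyond 1 kb and up to 10 kb had 24 bp. Their median q-values were 0.135 and 0.131, against 0.129 for the far sites. The 352 young sites that overlapped Foxa2 were wider, with a median of 74.5 bp (quartiles 28 and 177). Of these, 26.7% (22.2 to 31.7) were under 30 bp, and their median q was 0.114. Within the far sites the median width was 24 bp from 10 to 50 kb, 24 bp from 50 to 200 kb and 26 bp above 200 kb, and the median q was 0.128, 0.129 and 0.129. Over the same distances the share with a q of at most 0.1 was 24.2% (22.0 to 26.5), 19.4% (17.5 to 21.3) and 17.3% (15.3 to 19.6). In the whole young list it was 22.1%. Chromosome X had 0 far sites at that limit and made up 2.67%, 3.40% and 12.7% of the far sites at these distances. The shares were not separated from chromosome make-up. The median enrichment over these distances was 18.2, 18.6 and 20.9. Among these distance classes the overlapping sites had the largest median width and the lowest median q, and their median enrichment was the lowest, 7.86 against 18.6 for the far sites. The medians on either side of 10 kb showed no such step. No test was made of these differences.

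**Figure D2:**
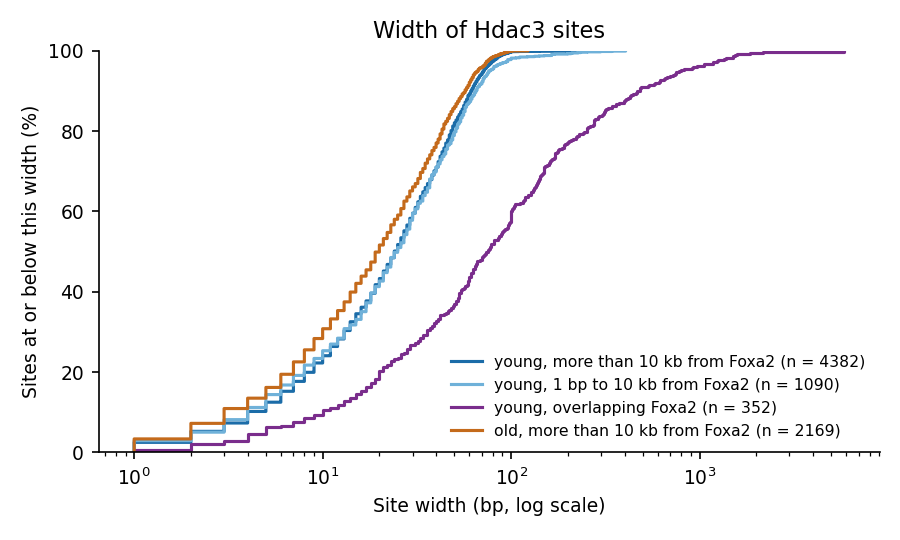
Cumulative share (%) of Hdac3 sites at or below each width (bp, log scale) for the 4382 far young sites, the 1090 young sites from 1 bp to 10 kb from Foxa2, the 352 young sites that overlap Foxa2 and the 2169 old sites far from Foxa2. The far and the nearby young curves run almost together, with medians of 24 and 25 bp, and the overlapping sites lie to the right with a median of 74.5 bp.

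No far site had a q of at most 0.05. In the whole young Hdac3 list 105 sites did, 1.80%, and each of these lay within 10 kb of a Foxa2 site: 99 overlapped one, 2 lay 1 to 1000 bp away and 4 lay farther, up to 10 kb. Of the 105, 83 also overlapped an old Hdac3 site, which the rule for far sites bars. For far sites with a q of at most 0.05, 0 of 4382, the exact 95% interval reaches 0.0841% and covers counting error only. The lowest q of a far site was 0.0603, at the 314 bp site on chromosome 6, which was also the widest and lay 18.3 kb from an old Foxa2 site. At a limit of 0.1 the young list had 22.1% of its sites, and the far sites had 894, 20.4% (19.2 to 21.6), while the sites that overlapped Foxa2 had 148 of 352, 42.0% (36.8 to 47.4).

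Far sites with a q of at most 0.1, a limit that 22.1% of the whole young list met, were unevenly spread over the chromosomes. The 1166 young Hdac3 sites with a q from 0.08 to 0.1, far or not, lay on 14 chromosomes. Whether the sites nearer to Foxa2 were spread in the same way was not counted. Of the 894 far sites with a q of at most 0.1, 891 lay on chromosomes 1 to 9 and the other 3 on chromosome 17, and 11 of the 21 chromosomes had none. Chromosomes 2, 6, 8 and 7 held 196, 191, 143 and 133 of them, 74.2% together. On chromosome 6 such sites were 79.6% of the 240 far sites, and on chromosome 4 they were 1 of 245. Leaving out Y with its 1 far site, the median q per chromosome ran from 0.0828 on chromosome 6 to 0.184 on chromosome 11. Over the same chromosomes median widths ran from 20 bp on chromosome 7 to 32 bp on chromosome X, and chromosome 6, with the lowest q, had 22 bp.

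The list order showed how fine these differences in q were. The 1166 young Hdac3 sites with a q from 0.08 to 0.1 hold list places 123 to 1288, and 893 of them are far sites. Across these sites 1/q fell in a straight line with list place (Pearson r = -0.9999 over these 1166 sites, which share 1 list sorted by q). The sorting fixed the sign of r in advance. Far sites with a q of at most 0.1 were followed by a far site of the same chromosome in 842 of 893 steps down the list, 94.3%, and those with a higher q in 1202 of 3487, 34.5%. Beside the 314 bp site, the far sites with the lowest q were 9 sites on chromosome 6 between 97806665 and 99937781, at q of 0.0801 or 0.0802. They were 5 to 49 bp wide, and their enrichment ran from 9.10 to 521. Sites of quite unlike enrichment thus stood at nearly 1 value of q.

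A large share of the far sites had an enrichment at one of a few fixed values of their chromosome. On chromosome 6, 52 of 240 far sites had exactly 18.204, 43 had 9.102 and 12 had 6.068. On chromosome 1, 79 of 383 had 17.047, 36 had 8.524 and 11 had 5.682. On each of these chromosomes the other 2 values are 0.5 and 0.333 times the commonest. Chromosome X showed less of this: 37 of 252 had 12.052, 5 had 6.026 and 0 stood at 0.333 times the commonest. The commonest value differed between chromosomes, from 9.094 on chromosome 17 to 18.793 on chromosome 5, and it was held by 14.3% to 31.7% of the far sites of a chromosome, leaving out Y with its 1 site. Over these chromosomes 1998 of 4381 far sites, 45.6%, stood at 1, 0.5, 1.1667, 0.8333 or 0.3333 times their chromosome's commonest value, to within 0.001. Among the young Hdac3 sites within 10 kb of Foxa2, 36.2% did so on their own commonest values. These ratios were not planned and are steps seen in the far sites, so the 2 shares are not like for like. The median enrichment of the far sites, 18.6 (quartiles 10.4 and 106), is itself such a commonest value, that of chromosome 16.

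The other large share of far sites had high enrichments that fell with width. Above 2.2 times the commonest value of the chromosome, a limit set after the values were seen, lay 1867 far sites (42.6%) with a median enrichment of 133 and a highest of 5784. Across these sites enrichment and width were inversely related (Pearson r = -0.91 on log10 values, Spearman rho = -0.88, 1867 sites that share libraries and depth). The product of enrichment and width was between 1334 and 5736 for the central 90% of them, with a median of 2658. Single-base sites of this kind had a median enrichment of 2485, sites of 11 to 20 bp 167, and sites above 50 bp 51.7. In the 2514 sites at or below the limit the 2 measures were nearly unrelated (r = -0.05). The split was made on enrichment itself, which bounds its range on each side, so the 2 correlations are in part shaped by the limit.

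**Figure D3:**
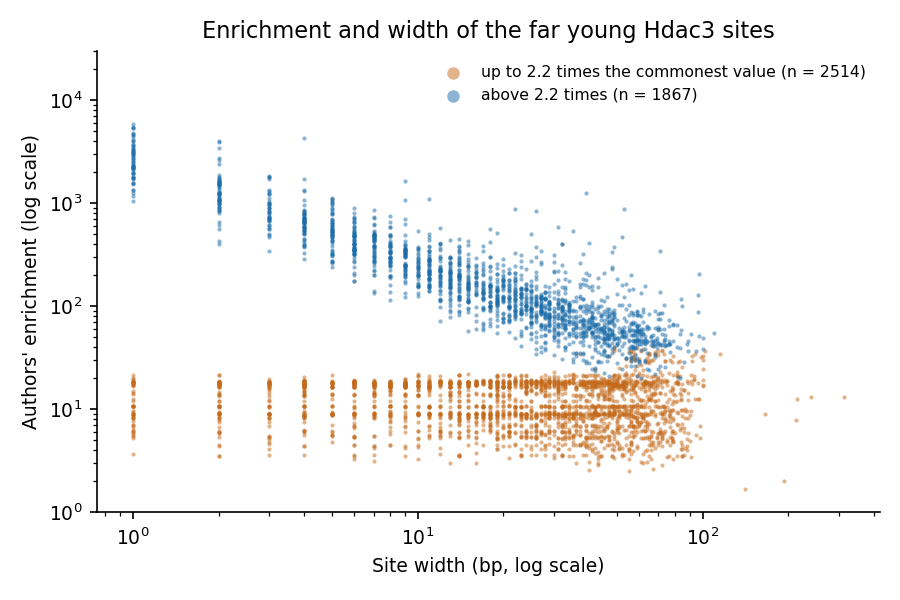
The authors' enrichment (log scale) against width (bp, log scale) for the far young Hdac3 sites, coloured by whether the enrichment is above 2.2 times the commonest value of the chromosome. The 1867 sites above it form a band that falls from a median of 2485 at 1 bp to 51.7 above 50 bp, and the 2514 sites below it form level rows.

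The far sites with the highest enrichment were single bases. They lay on chromosome 5 at 7501473 (enrichment 5784), on chromosome 4 at 23572518 (5416), chromosome 19 at 31101304 (5353), chromosome 18 at 22751616 (5320) and chromosome X at 140364014 (4822). Their q-values were 0.105, 0.118, 0.154, 0.151 and 0.154, in the range of all far sites. The widest far site, with the lowest q, had an enrichment of 13.1, below the median. Of the 10 far sites with the lowest q, 3 had enrichments above the upper quartile of all far sites, at 521, 208 and 203, and none was among the 5 with the highest enrichment.

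Far sites were spread over every chromosome. Leaving out Y, their density ran from 1.19 per Mb on chromosome 7 to 2.40 per Mb on chromosome 17, over the stretch that the sites of all lists span, with a median of 1.67. Chromosome X held 252, 5.75% (5.08 to 6.48), at 1.55 per Mb. Far sites on X lay farther from Foxa2 than those on autosomes, with medians of 297 and 84.0 kb, and 155 of the 252 on X (61.5%) lay above 200 kb against 25.7% of 4129 on autosomes. Leaving out Y again, Foxa2 sites of both lists together were sparsest on X, at 2.05 per Mb, and densest on chromosome 8, at 10.6 per Mb, where the far sites had the shortest median distance, 56.7 kb. The 3 far sites most remote from Foxa2 lay on chromosome X, from 144183251 to 144183306 (2074 kb) and from 130069925 to 130069946 (1978 kb), and on chromosome 14 (3049122 to 3049170, 2023 kb).

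Few far sites had another far site close by. Of the 4382, 356 lay within 10 kb of another, 8.12% (7.33 to 8.97), and 28 within 1 kb. Among the young sites within 10 kb of Foxa2, 29.4% (27.1 to 31.8) lay that close to another such site. The rule confines those sites to the stretches around Foxa2 sites, so the 2 shares are not like for like. Among the 2169 old Hdac3 sites far from Foxa2 the share was 5.16% (4.27 to 6.18), in a smaller set. Joined at gaps of up to 10 kb, 4026 far sites stood alone. The others formed 162 pairs, 6 runs of 3, 1 run of 4 and 2 runs of 5. The runs of 5 spanned 80217727 to 80235197 on chromosome 10 and 42978441 to 42995757 on chromosome 4, and the run of 4 spanned 37585999 to 37608418 on chromosome 14. These runs were chosen after the values were seen. In the run on chromosome 10 the widths ran from 16 to 100 bp and the enrichments from 6.96 to 187, no old Hdac3 site lay within 50 kb, and the nearest Foxa2 site was 47.0 kb away. The run on chromosome 4 lay in a stretch dense in Hdac3 sites of both ages: within 50 kb of it the young list had 11 Hdac3 sites and the old list 7, with 3 young and no old Foxa2 sites. One of the sites just outside the limit and one just inside it belong to the same stretch. The run on chromosome 14 had no Foxa2 site of either age within 50 kb.

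Old Hdac3 sites rarely lay near the far sites, and seldom near young Hdac3 sites as a whole. The rule bars an old site that overlaps, which removed 4 young sites, on chromosomes 6, 9, 16 and 18, but leaves the distance beyond that free. The median distance from a far site to the nearest old Hdac3 site was 457 kb, 101 far sites had one within 10 kb, 2.30% (1.88 to 2.79), and 9 within 1 kb. Of the 101, 97 had within 10 kb an old Hdac3 site that was itself far from Foxa2. In the whole young list 403 of 5828 sites had an old Hdac3 site within 10 kb, 6.91% (6.28 to 7.60). Of the 780 young sites beyond 1 kb and up to 10 kb from Foxa2, 6.41% (4.79 to 8.36) had one. The share was 17.1% (13.1 to 21.8) of the 310 sites 1 to 1000 bp from Foxa2 and 55.4% (50.04 to 60.7) of the 352 that overlapped it. These shares include sites that overlap an old one, which are barred among far sites. Such sites were 158 of the 5828, 4 of the 780, 6 of the 310 and 144 of the 352.

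The closest neighbours of the 2 ages lay within 200 bp of each other, and their listed values differed. On chromosome 10 a far site from 41208839 to 41208862 (enrichment 17.9, q 0.196) lay 33 bp from an old site of 6 bp (enrichment 340, q 0.049). On chromosome 3 a far site from 75292189 to 75292224 (enrichment 20.9, q 0.138) lay 129 bp from an old site of 11 bp (enrichment 17.5, q 0.068). On chromosome 18 a far site from 42240062 to 42240069 (enrichment 9.31, q 0.145) lay 187 bp from an old site of 14 bp (enrichment 16.0, q 0.0776). These 3 pairs were chosen after the values were seen.

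The old Hdac3 list had a like share of sites far from Foxa2. With the rule turned round, 2169 of 2930 old sites lay more than 10 kb from every Foxa2 site and overlapped no young Hdac3 site, 74.0% (72.4 to 75.6). Their median width was 20 bp (quartiles 8 and 38), against 24 bp for the far young sites, and 65.1% (63.1 to 67.1) were under 30 bp. Their enrichments again stood in steps and in a band that fell with width: 41.1% lay above 2.2 times the commonest value of their chromosome, with a Pearson r of -0.91 between log10 enrichment and log10 width. Their steps differed from those of the young list, with 172 sites at 1.1429 times the commonest value and 3 at 1.1667, where the far young sites had 0 and 189. A q of at most 0.05 was listed for 107 of them, 4.93%, where the old list as a whole had 7.95%, and for no far young site. The whole lists differed in q as well, with medians of 0.0775 for the old and 0.129 for the young Hdac3 list. A q of at most 0.1 was listed for 76.0% of the old and 22.1% of the young list. The q-values come from separate lists of unequal length, so nothing on a change with age can be read from them.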

How the data were processed

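Each site in the 4 deposited lists has a chromosome, a begin, an end, an enrichment and a q-value, per the file headers. The enrichment is a ratio (fold) per site made by the authors, and the q-value is the authors' own. BWA and mm9 are named in the submitters' processing notes. The version of BWA, the peak caller, the control, and how libraries were combined are not stated. The end was counted in the site, so width is end minus begin plus 1. Distance is the difference between nearest edges, 0 for overlap. Distances to Foxa2 equalled those of bedtools 2.31.1 at 5828 of 5828 sites, and 400 of 400 simulated sites gave back their planted distance. Shares have exact (Clopper-Pearson) 95% intervals. Named sites are the 10 with the lowest q, the 5 with the highest enrichment, the 5 widest, 3 on each side of the distance limit and the 3 farthest from Foxa2. The members and lists were chosen with earlier results of these data known. Planned results on transcription starts, gene lists, cell type markers, motifs and repeats were not run, because the gene table and promoter sequences at hand are of GRCm38 and no coordinates were converted. Alternatives were other distance, q and width limits, autosomes, and a shorter old Foxa2 list, the last chosen after seeing the data. Computations ran in Python 3.11.15 with pandas 2.3.3, numpy 2.4.6, matplotlib 3.10.9 and scipy 1.17.1.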

Additional observations from a re-analysis of the deposited data

How the results depend on the processing

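Over 7 alternatives, 31 of 40 recomputed values stayed within 1.5 times the count or within the 95% interval of the reported value. With a q of at most 0.1 there were 894 far sites, with a median width of 21 bp, 4.03% had another far site within 10 kb and 1.45% an old Hdac3 site within 10 kb. With sites of at least 30 bp there were 1828, with a median q of 0.133, a median enrichment of 17.7 and 5.14% close to another far site. With no old Hdac3 site allowed within 10 kb, the share near an old site was 0% by construction. Both stricter limits leave fewer sites, and a site that remains can lose neighbours but gain none. The cause of the other moved values was not tested. Limits of 5 and 50 kb gave 4748 and 2922 far sites. Alternatives on transcription starts, the AGGTCA half-site, repeats and gene lists were not run. No paired analysis was possible because the lists carry no replicate columns and no result comes from a test. Depth limits the lists to an unknown degree, since no read counts were used here.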
